A study of Mus musculus with 2 samples.

Results

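The annexins are proteins that bind acidic phospholipids in membranes when calcium rises, through a conserved core of repeated domains, while the short N-terminal part in front of the core differs between members and binds their protein partners. In stratified epithelia they are found at the plasma membrane, in endosomes and in the cornified envelope, and *Anxa1* is best known as a glucocorticoid-induced protein whose released form acts on formyl peptide receptors of leukocytes. The family was followed here through 10 genes, *Anxa1* to *Anxa9* and *Anxa11*, which were taken by gene symbol from a table of 18498 rows, and each of the 10 had 1 row. The family was chosen by the RPKM of *Anxa1*, which is among the most abundant genes with a higher level in the papilla, so the values below describe that choice and no test was made on them.

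The table compared the circumvallate papillae (CvP), the taste papillae at the back of the tongue, with the surrounding tongue epithelium free of papillae (Epi). All mice were male C57BL/6J animals of 12 to 30 weeks on normal chow, with no transgene or treatment in either group. RNA of at least 20 mice was pooled per tissue and sequenced as 1 poly(A) library each, so neither tissue had a replicate and the spread between mice is unknown. Levels are RPKM, read densities per kilobase of exon model and per 1000000 mapped reads. The length by which each gene was divided is not known for certain, as described in the processing section. Orders, shares and distances between genes rest on those lengths, and the intervals do not cover this. The libraries held about 28375281 (CvP) and 27908511 (Epi) mapped reads, as read from the lowest values of the table, and the 95% intervals given with levels and ratios cover counting error only.

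The 2 libraries differed in more than taste tissue. All 9 taste bud markers listed were at least 2-fold higher in the CvP, with a summed RPKM of 492 against 5.45, and *Pkd2l1*, *Snap25* and *Kcnq1* were listed at 0 in the Epi. The 6 immune markers that reached an RPKM of 1 in the CvP were also at least 2-fold higher there (sum of all 7, 156 against 7.01). Most of that CvP sum was *Lyz2* (132 against 0.43), and most of the Epi sum was *Cd68* (10.8 against 4.45). Only *Cd68* of these 6 reached 1 in the Epi as well. A level met through the CvP alone favours such a count, which is a description. The immune marker below that level, *Cd3e*, was at 0.15 in the CvP and listed at 0 in the Epi. In the other direction, the 5 skeletal muscle markers, 4 of 6 salivary gland markers and 3 of 5 suprabasal keratins were at least 2-fold higher in the Epi, with sums over each whole list of 2.81 against 41.9, 10.3 against 431 and 34558 against 84686. The gland marker *Aqp5* went the other way (6.09 in the CvP and 0.69 in the Epi). Of the 6 basal keratinocyte markers 1 was at least 2-fold higher and 1 at least 2-fold lower in the CvP, and of 6 cornified layer markers with a row 2 were at least 2-fold lower. Fibroblast, endothelial and glial markers gave summed RPKM values of 27.5, 7.28 and 11.6 in the CvP and 128, 0.36 and 9.32 in the Epi. The fibroblast sums were nearly all *Dcn* (26.1 and 128), while *Pdgfra* was higher in the CvP (1.30 and 0.07). The endothelial sum of the CvP was mostly *Vwf* (4.45 and 0.09) and *Tek* (2.49 and 0.07). *Pecam1* (0.28 and 0.12) and *Kdr* (0.04 and 0.02) were low in both libraries, and *Cdh5* was lower in the CvP (0.02 and 0.06). The glial sums were mostly *Mbp* (10.3 and 8.94). The part of these cells in the annexin values was not tested, and in pooled tissue a different number of cells and a different amount of RNA per cell cannot be told apart.

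The start regions of *Anxa1*, *Anxa2* and *Anxa8* are shown because these were the 3 most abundant annexins in the CvP and differed in their CvP/Epi ratio. Each line gives the 120 bases before the annotated RefSeq transcription start on GRCm38.p6, read 5′ to 3′ along the gene. Capitals mark the motifs that were searched on both strands: the TATA box TATAAA, the GC box GGGCGG, the CCAAT box and TGANTCA, the site of AP-1 factors. No marked stretch overlaps another.
Anxa1, chr19:20390672-20390791, minus strand: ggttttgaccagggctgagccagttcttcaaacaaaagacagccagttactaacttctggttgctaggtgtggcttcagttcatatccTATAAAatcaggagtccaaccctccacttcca
Anxa2, chr9:69453563-69453682, plus strand: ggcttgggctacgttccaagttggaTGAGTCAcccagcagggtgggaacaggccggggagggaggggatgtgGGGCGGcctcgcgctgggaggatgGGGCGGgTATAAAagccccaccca
Anxa8, chr14:34085859-34085978, plus strand: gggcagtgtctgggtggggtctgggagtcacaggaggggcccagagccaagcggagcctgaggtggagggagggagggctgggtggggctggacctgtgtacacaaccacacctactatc
The TATAAA of *Anxa1* begins 32 bases before the start and that of *Anxa2* 17 bases before it. The *Anxa2* stretch also holds GGGCGG at 48 and 24 bases and TGANTCA at 95 bases before the start, and the *Anxa8* stretch holds none of the 4 motifs. In the table of 32851 windows of 300 bases, 8 of the 10 annexins had a total of 11 windows, since some genes have more than 1 annotated start. TATAAA occurred in 2 of these 11 windows, those of *Anxa1* and *Anxa2*, and in 13.6% of all windows. GGGCGG occurred in 5 of the 11 (of *Anxa2*, *Anxa4*, *Anxa7* and *Anxa11*) and in 35.7% of all windows, and TGANTCA in 1, that of *Anxa2*, and in 7.81% of all. CCAAT was found in none of the 11 and in 37.4% of all windows. The GC content of the window was 47.3% for *Anxa1*, 63.7% for *Anxa2* and 57.3% for *Anxa8*, against a median of 52.7%. A match of letters is a description and not a binding site.

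*Anxa1* stood apart from the rest of the family. Its RPKM was 2835 (95% interval 2820 to 2850) in the CvP and 174 (171 to 178) in the Epi, from about 134653 and 8147 reads. It was number 5 of all 18498 rows in the CvP and number 247 in the Epi, and its CvP/Epi ratio was 16.3 (15.9 to 16.6). Of the 30 rows with a CvP RPKM of at least 1000, 3 had a ratio above 10, namely *Anxa1*, *Ltf* and 1 region with no assigned gene. The family was chosen by this level of *Anxa1* and its excess in the CvP, so the count restates that choice. On NCBI37/mm9, the build of all gene positions below, *Anxa1* covers bases 20447924 to 20465161 of chromosome 19 (minus strand).

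**Figure D1:**
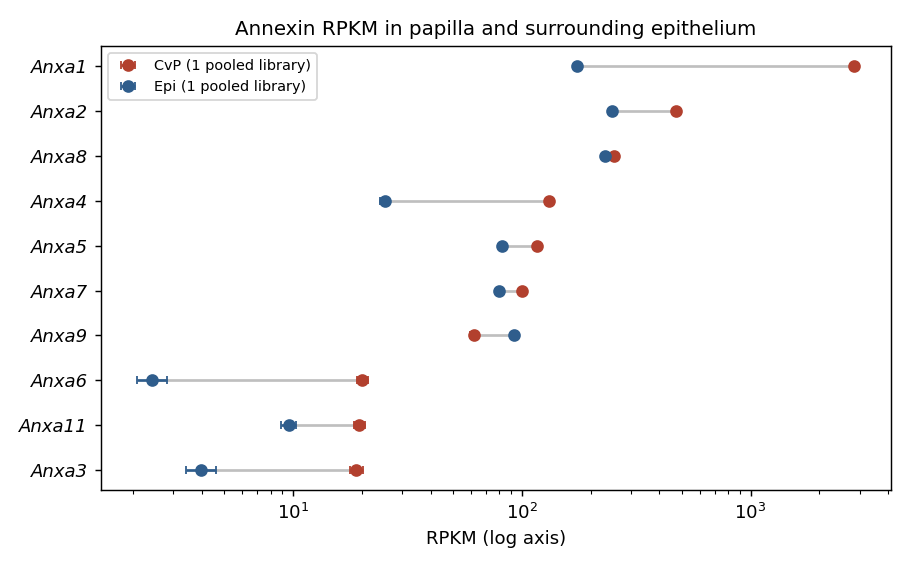
RPKM (log axis) of the 10 annexins in the CvP (red) and Epi (blue) libraries, ordered by CvP level. Bars are 95% Poisson intervals from estimated reads and each point is 1 pooled library. *Anxa1* reaches 2835 in the CvP against 174 in the Epi, the points of *Anxa8* lie close together, and *Anxa9* is the only annexin with the higher point in the Epi.

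The other annexins of stratified epithelium had ratios from 0.666 to 1.90. *Anxa2*, which joins with S100a10 into a membrane-bound complex and is a surface receptor for plasminogen activation, reached an RPKM of 473 (466 to 480) in the CvP against 249 (244 to 254) in the Epi, a ratio of 1.90 (1.85 to 1.95). It lies on chromosome 9 from 69301490 to 69339592. *Anxa8*, an annexin of stratified epithelia, had 253 (249 to 257) and 232 (228 to 236), a ratio of 1.09 (1.06 to 1.12), and lies on chromosome 14 from 34899176 to 34913754. *Anxa9*, an atypical member whose core lacks the usual calcium sites, had 61.9 (59.8 to 64.0) in the CvP and 92.8 (90.2 to 95.4) in the Epi. Its ratio of 0.666 (0.637 to 0.697) was the only one of the 10 below 1. *Anxa9* (chromosome 3, 95100016 to 95111098) shares 71 of its 2073 exon bases with *Fam63a* on the opposite strand, and the counting was not stated to use strand.

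Besides *Anxa1*, *Anxa6*, *Anxa4* and *Anxa3* were the members with the larger CvP/Epi ratios. *Anxa6*, whose protein carries the annexin core in duplicate, measured 20.2 RPKM (19.1 to 21.2) in the CvP and 2.43 (2.08 to 2.83) in the Epi. Its ratio of 8.30 (7.06 to 9.78) was the second of the family, at a CvP level that was number 2885 among all rows. *Anxa4*, an annexin of secretory and ductal epithelia, had 131 (128 to 134) and 25.2 (24.0 to 26.4), a ratio of 5.21 (4.95 to 5.48). *Anxa3*, which is abundant in neutrophils and also found in epithelia, had 19.0 (17.7 to 20.3) and 3.97 (3.41 to 4.60), a ratio of 4.78 (4.06 to 5.64). The intervals of the *Anxa3* and *Anxa4* ratios overlapped. *Anxa6* lies on chromosome 11 from 54792464 to 54846973, *Anxa4* on chromosome 6 from 86686834 to 86743578 and *Anxa3* on chromosome 5 from 97222404 to 97274987.

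The widely expressed members *Anxa5*, *Anxa7* and *Anxa11* had ratios from 1.26 to 2.04. *Anxa5*, the phosphatidylserine-binding protein used to stain dying cells, measured 117 RPKM (114 to 120) in the CvP against 82.3 (79.7 to 84.9) in the Epi, a ratio of 1.42 (1.36 to 1.48). *Anxa7*, which binds the calcium protein sorcin, had 100.2 (98.0 to 102) and 79.6 (77.7 to 81.6), a ratio of 1.26 (1.22 to 1.30). *Anxa11*, which has a long N-terminal part that binds S100a6 and Pdcd6, had 19.5 (18.5 to 20.6) and 9.58 (8.85 to 10.4), a ratio of 2.04 (1.85 to 2.24). *Anxa5* lies on chromosome 3 from 36347846 to 36374809, and *Anxa7* (21274483 to 21299355) and *Anxa11* (26661641 to 26706290) lie on chromosome 14 with *Anxa8*.

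The *Anxa11* values are uncertain in a way that those of the other members are not. On NCBI37/mm9, bases 972 to 2367 of its transcript, the 3′ part, have 2 further copies on chromosome 14 (26835915 to 26846060 and 26975529 to 26985674), at an identity of at least 97% over stretches of at least 75 bases. These copies cover 54.4% of the 2367 bases of the transcript. How reads that match several places were assigned is not given in the sources used here. For the other 9 members no such stretch was found outside the gene, so reads shared with a near-identical copy were not seen for them. Members also differed from each other: over the 45 pairs the coding sequences were from 55.8% to 63.4% identical (median 60.2%, at least 903 aligned bases), and no pair shared a window of 75 bases, the length of a read. *Anxa1* and *Anxa2* were 61.9% identical. The coding sequence of *Anxa6* had 673 codons, against 319 to 503 in the other 9.

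**Figure D2:**
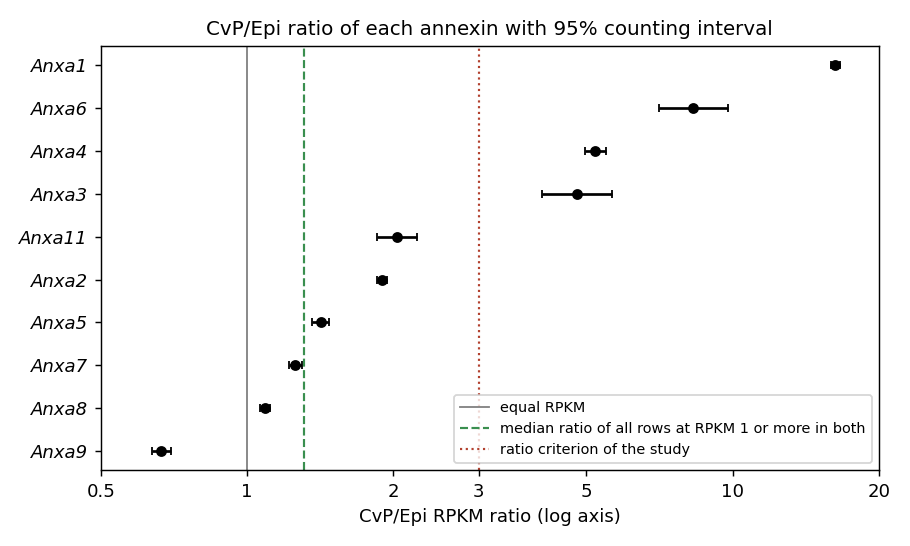
CvP/Epi RPKM ratio (log axis) of each annexin, ordered by size. Bars are 95% exact binomial intervals for counting error; the lines mark equal RPKM, the median ratio of all rows at an RPKM of at least 1 in both libraries (1.31) and the ratio of 3 used by the study. *Anxa1*, *Anxa6*, *Anxa4* and *Anxa3* lie above 3, and *Anxa7*, *Anxa8* and *Anxa9* lie below the median line, which puts the first 2 of these on the other side of 1 once ratios are divided by that median.

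Read against the whole table, 5 of the 10 members passed a 2-fold limit and 5 did not. Over the 10363 rows with an RPKM of at least 1 in both libraries the median ratio was 1.31 (log2 0.39), so most rows were somewhat higher in the CvP. Of the 10 annexins 9 had a ratio above 1, as had 78.1% of the 12549 rows that reached an RPKM of 1 in either library. Divided by the median ratio, 7 members remained above 1, and *Anxa7* (0.958) and *Anxa8* (0.830) fell below it beside *Anxa9* (0.508). After this division *Anxa1* was at 12.4, *Anxa6* at 6.32, *Anxa4* at 3.97, *Anxa3* at 3.64, *Anxa11* at 1.55, *Anxa2* at 1.45 and *Anxa5* at 1.08.

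A ratio of at least 2 was reached by 5 members, *Anxa1*, *Anxa6*, *Anxa4*, *Anxa3* and *Anxa11*, against 28.3% of the rows that reached an RPKM of 1 in either library. The lower limit of the *Anxa11* interval, 1.85, was below 2. No member was at least 2-fold lower in the CvP, against 3.76% of the same rows. The criteria of the study, a CvP RPKM above 10 and a ratio above 3, were met by 4 members, against 2.35% of all rows (435 of 18498) when applied as written to the deposited RPKM. *Anxa3* (4.78) had the lowest ratio of the members inside these criteria and *Anxa11* (2.04) the highest of those outside. All 10 members had a CvP RPKM above 10, so the ratio alone separated them. Most rows of the table did not, since *Pla2g4a*, at 9.2, was number 5889 of 18498 in the CvP. The share of 2.35% is therefore not a like background for these 10 members. The median log2 ratio of the 10 members was 0.98, a ratio of 1.97, and that of the 12549 rows was 0.51, a ratio of 1.43. These counts came from the contrast for which the family was picked and are a description.

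Highly expressed rows had a different background. Of the 1150 rows that reached an RPKM of 50 in either library, 11.3% were at least 2-fold higher in the CvP and 42.2% were higher at all, with a median ratio of 0.919. The family had 7 members among them, of which 2, *Anxa1* and *Anxa4*, were at least 2-fold higher and 6 were higher. *Anxa4* reached an RPKM of 50 only in the CvP (131, against 25.2 in the Epi), and *Anxa1* was the gene by which the family was chosen. The count of 2 therefore follows in part from the filter and from the choice. By ratio *Anxa1* was number 40 of these 1150 rows. *Anxa9*, the exception, had a ratio larger than 7.22% of the 12549 rows, whereas *Anxa1* exceeded 94.2% of them, *Anxa6* 92.3%, *Anxa4* 90.0% and *Anxa3* 89.2%.

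**Figure D3:**
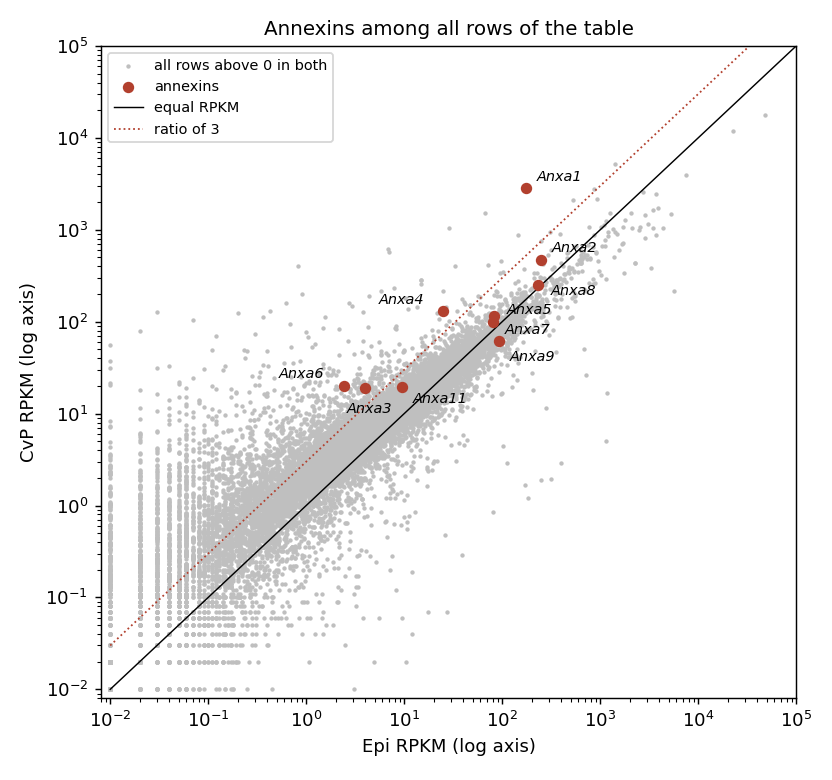
CvP RPKM against Epi RPKM (log axes) for all rows above 0 in both libraries (grey), with the 10 annexins in red. The solid line marks equal RPKM and the dotted line a ratio of 3. *Anxa1*, number 5 of all rows in the CvP, lies above the dotted line. *Anxa3*, *Anxa4* and *Anxa6* lie above the dotted line at lower Epi levels, and the other 6 lie below it.

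The make-up of annexin mRNA differed between the libraries mainly through 1 gene, *Anxa1*. The family was chosen by this gene, so its large part in the difference follows from the choice. The summed RPKM of the 10 members was 4029 in the CvP against 951 in the Epi, a ratio of 4.23, or 1.18% and 0.231% of the RPKM of all rows. *Anxa1* held 70.4% of the CvP sum and 18.3% of the Epi sum, and it made up 86.4% of the difference of 3078 RPKM. Without *Anxa1* the sums were 1194 and 777, a ratio of 1.54, and without *Anxa2* as well they were 721 and 528, a ratio of 1.37. In the Epi, *Anxa2* (26.2%) and *Anxa8* (24.4%) held larger shares of the sum than *Anxa1*. *Anxa9* held 9.75% of the Epi sum and 1.54% of the CvP sum. The large *Anxa1* part of the CvP sum lowers the CvP shares of the other members. *Anxa8*, with a ratio of 1.09, held 6.28% of the CvP sum.

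**Figure D4:**
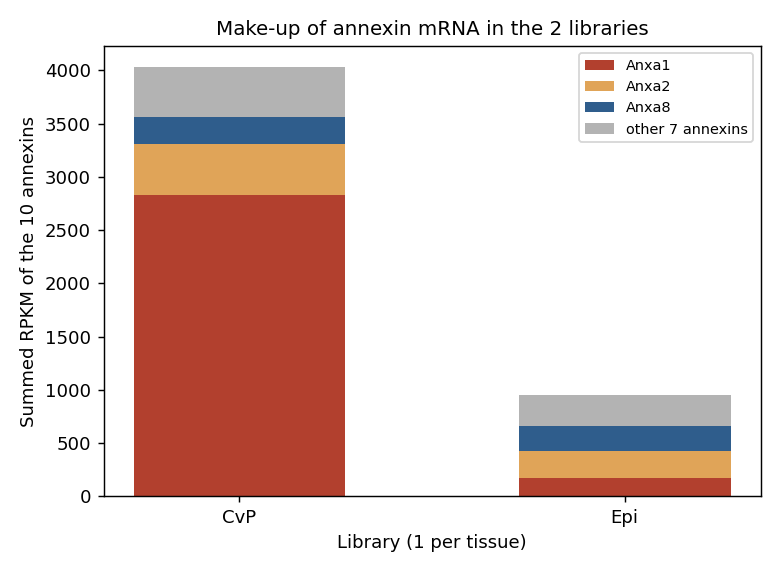
Summed RPKM of the 10 annexins in each library (1 per tissue), stacked as *Anxa1*, *Anxa2*, *Anxa8* and the other 7 members. The CvP bar reaches 4029 and is mostly *Anxa1* (70.4%), whereas in the Epi bar of 951 *Anxa2* and *Anxa8* are each larger than *Anxa1*.

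The order of the members also changed. From high to low, the CvP order was *Anxa1*, *Anxa2*, *Anxa8*, *Anxa4*, *Anxa5*, *Anxa7*, *Anxa9*, *Anxa6*, *Anxa11* and *Anxa3*. The last 3 of these, from 20.2 to 19.0, could not be ordered, since the intervals of neighbours overlapped. The Epi order was *Anxa2*, *Anxa8*, *Anxa1*, *Anxa9*, *Anxa5*, *Anxa7*, *Anxa4*, *Anxa11*, *Anxa3* and *Anxa6*. There the intervals of *Anxa5* and *Anxa7* overlapped. Both orders also rest on the gene lengths behind the RPKM, which are uncertain. *Anxa4* was number 4 in the CvP and number 7 in the Epi, *Anxa9* number 7 and number 4. The 3 least abundant members were *Anxa3*, *Anxa6* and *Anxa11* in both libraries.

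The genes with levels most like those of the leading annexins were found by distance in the plane of log2 CvP and log2 Epi RPKM, over these 2 libraries only. No gene with a symbol lay close to *Anxa1*. It was picked as an abundant gene and was number 5 of all rows in the CvP, so few rows lay near its level. The nearest were *2300002M23Rik* (RPKM 2123 and 523), *Emp1* (875 and 146), *Cyp2f2* (935 and 305), *Adh7* (757 and 249) and *Ecm1* (898 and 389), at log2 distances of 1.64 to 2.02 and with ratios of 2.31 to 6.00. *Anxa2* had near neighbours at distances of 0.16 to 0.50, *Arg1* (427 and 262), *S100a11* (533 and 292), *Cd9* (598 and 313), *Tmprss11a* (377 and 321) and *Dsc2* (339 and 225). The nearest to *Anxa8* were *Tubb2c*, *Atp5a1*, *Jup*, *Calr* and *Pkm2*, at distances of 0.18 to 0.27 and with ratios of 0.903 to 1.21.

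Partners of the annexins were taken as a list of 14 genes, of which 13 had a row and 9 reached an RPKM of 1 in either library. Of these 9, 4 were at least 2-fold higher in the CvP (*S100a10*, *S100a6*, *Sri* and *Plat*), none was at least 2-fold lower and 5 lay between, against the shares of 28.3% and 3.76% given above. The most abundant partners in the CvP were 3 genes of S100 proteins that bind annexin N-termini. *S100a10*, the partner of Anxa2, measured 152 RPKM in the CvP against 46.9 in the Epi, a ratio of 3.23 (2.9997 to 3.49), larger than that of *Anxa2* itself. *S100a11*, the partner of Anxa1, had 533 and 292, a ratio of 1.83 (1.76 to 1.90), far smaller than that of *Anxa1*. *S100a6*, which binds Anxa11, had 341 and 95, a ratio of 3.59 (3.41 to 3.78). *S100a4* had 3.88 and 5.10, and the interval of its ratio, 0.761, ran from 0.526 to 1.10 and held 1, so a difference could not be detected with these reads.

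The large scaffold gene *Ahnak*, whose protein binds the Anxa2 and S100a10 complex, was lower in the CvP, at 135 against 226 and a ratio of 0.595 (0.589 to 0.601). *Pdcd6*, a calcium protein that binds Anxa7 and Anxa11, had 27.5 and 27.99, a ratio of 0.982 (0.905 to 1.06), and *Sri*, which codes for sorcin, had 25.4 and 10.1, a ratio of 2.51 (2.30 to 2.74). *Plat*, the tissue plasminogen activator whose activity is promoted by Anxa2 at the cell surface, had 8.80 in the CvP and 0.11 in the Epi. Its ratio of 80.0 rested on about 8 Epi reads, with an interval from 39.2 to 181, while its substrate gene *Plg* had about 1 read in the CvP and was listed at 0 in the Epi. *Pla2g4a*, a cytosolic phospholipase A2 of the kind that annexins inhibit in vitro, had 9.20 and 7.43, a ratio of 1.24 (1.11 to 1.38). The receptors for Anxa1, *Fpr1* and *Fpr2*, were at 0.18 and 0.35 in the CvP, about 7 and 11 reads, and were listed at 0 in the Epi. *Dysf*, a membrane repair gene, was at 0.01 and 0.04.

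**Figure D5:**
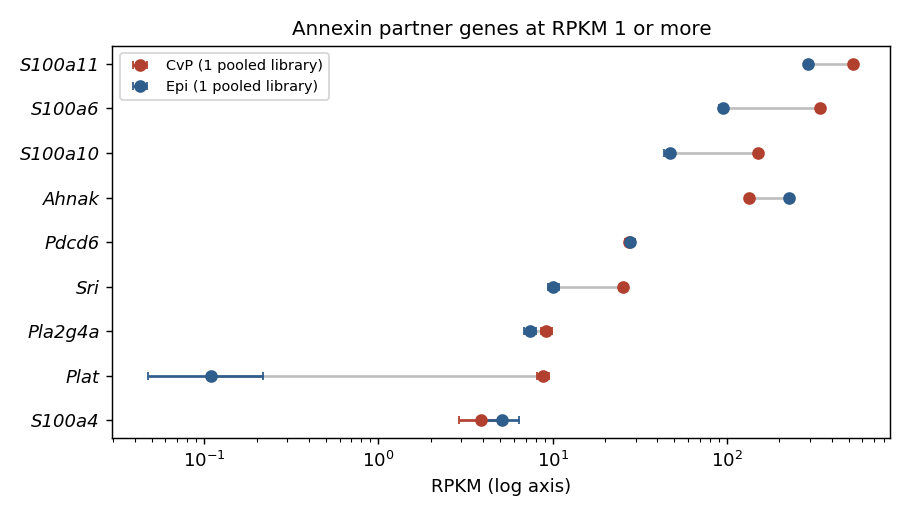
RPKM (log axis) of the 9 annexin partner genes that reached an RPKM of 1 in either library, CvP in red and Epi in blue. Bars are 95% Poisson intervals from estimated reads, with 1 pooled library per point. *S100a10*, *S100a6*, *Sri* and *Plat* lie at least 2-fold higher in the CvP, and *Ahnak* lies higher in the Epi.

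A second family of calcium-dependent membrane binders gave a comparison by function. Of 13 C2-domain genes (the copines, *Myof* and the extended synaptotagmins), 12 had a row and 9 an RPKM of at least 1. Of the 9, 2 were at least 2-fold higher in the CvP, *Cpne3* (16.2 and 7.76) and *Esyt1* (6.25 and 1.90), and none was at least 2-fold lower, against the same shares of 28.3% and 3.76%. The 3 with the highest CvP RPKM were *Esyt2* (18.5 and 11.9), *Cpne3* and *Esyt3* (15.4 and 29.8). In the table's own gene ontology column, calcium-dependent phospholipid binding was assigned to 22 rows, the 10 members and 12 others. The 10 members held 99.5% of the summed RPKM of these rows in the CvP and 98.9% in the Epi, and the highest of the others was *Pla2g4a*. Of the remaining annexins, *Anxa13* was at 0.08 in the CvP, about 2 reads, and was listed at 0 in the Epi, at or below the floor of 3 reads in both. *Anxa10* was not analysed here.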

How the data were processed

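RNA of the CvP and the Epi was sequenced once per tissue. Single-end reads of 75 bp were mapped by the authors with Bowtie 0.12.7 to NCBI37/mm9 and turned into the deposited RPKM values with ERANGE, whose options are not given in the sources used here; their CvP/Epi ratio column was not used. Ratios were taken from the deposited RPKM with no pseudocount. The depth was read from the steps of RPKM in the 163 rows of 0.1 kb (0.352 and 0.358 per read); in rows of up to 0.5 kb with under 20 reads, 96.4% and 97.4% of values lay within 0.1 of a whole read. RPKM times listed length summed to 1766466 and 1998307, above 1000000, so listed lengths were not the divisor throughout, and a gene's reads were estimated with its listed length or its longest GENCODE M1 coding transcript, whichever was shorter. Intervals are Clopper-Pearson (ratios) and exact Poisson (levels) and cover counting error only, since reads without molecular identifiers are not independent molecules. No gene had a replicate check and no p-value was calculated.

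The members and lists were chosen with earlier results of these data known. The genes named were the members, *Anxa10* and *Anxa13*, the partner list (*S100a10*, *S100a11*, *S100a6*, *S100a4*, *Ahnak*, *Pdcd6*, *Sri*, *Fpr1*, *Fpr2*, *Fpr3*, *Plat*, *Plg*, *Pla2g4a*, *Dysf*), the C2 genes (as counts with the 3 of highest level) and the 5 genes nearest to *Anxa1*, *Anxa2* and *Anxa8* (pseudocount 0.1). *Ltf*, *Esyt1* and single marker genes were named after their values were seen. Promoter windows (250 bases before to 50 after the start) came from RefSeq on GRCm38.p6. Protein sequences were not analysed here, and coding sequences were aligned instead with Biopython 1.88. The depth estimate, the ratio intervals and the 2-fold limit were tested on simulated data. These data took the listed length as the divisor, so the length estimate itself was not tested. Python 3.11.15, numpy 2.4.6, pandas 2.3.3, scipy 1.17.1 and matplotlib 3.10.9 were used.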

Additional observations from a re-analysis of the deposited data

How the results depend on the processing

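No paired analysis was possible because the 2 tissues have 1 library each and nothing was tested. The members that met both criteria were 4 as reported and stayed within 3 to 5 under each alternative but one: with a minimum CvP RPKM of 50 they were 2. The members at least 2-fold higher in the CvP were 5, and 4 to 6 under every alternative; *Anxa11* fell below 2 when ratios were divided by the median or trimmed mean ratio or with a pseudocount of 1, and *Anxa2* rose above 2 under both rescalings to a common sum. The members at least 2-fold lower were 0, and 1, *Anxa9*, at a limit of 1.5-fold. The median log2 ratio of the members, 0.98, was 0.58 once ratios were divided by the trimmed mean or the median ratio and 1.25 with RPKM rescaled to a common sum. It was 0.93 without *Anxa1* or without *Anxa11*, alternatives chosen after seeing the data. No member with a ratio of at least 2 changed direction under the 6 scalings and pseudocounts; that of *Anxa1* ran from 12.3 to 19.6, and *Anxa7* and *Anxa8* fell below 1 in 2 of the 6. Depth limits the 3 members below an Epi RPKM of 10, and with 1 pooled library per tissue the spread between mice cannot be seen.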
